A study of Oryctolagus cuniculus with 6 samples.

Results

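The 10 genes described here are markers and biogenesis genes of extracellular vesicles. CD9, CD63, CD81 and CD82 are tetraspanins, TSG101, PDCD6IP, SDCBP, CHMP1B and VPS4B act in the making of multivesicular bodies, and EDIL3 is a secreted glycoprotein found on vesicles. They were taken by name from the table of counts, on a list made with earlier results of these data known. Of the 10 genes, 9 were read from the table of 22190 genes, and CD81 was not analysed here. All 9 passed the filter on low counts and were tested among 15029 genes.

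RNA-seq was performed on primary LSCs, the limbal stem cells that renew the corneal epithelium, grown out of limbal explants of rabbits. The fresh group (3 libraries) came from corneas that were neither frozen nor given cytokine. In the preconditioned group (3 libraries), corneas were kept for 7 days in liquid nitrogen in a cryomedium that held 10 ng/mL IL-1β, an inflammatory cytokine, together with serum and dimethyl sulfoxide, and were then thawed. Freezing and IL-1β were given together, so that their parts cannot be told apart. Both groups were grown in keratinocyte medium, and strain, age and the animal behind each library are not given in the sources used here, so that p values measure only the spread between these libraries, which may be technical.

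Small vesicles called exosomes form when the membrane of an endosome buds inward, which makes a multivesicular body, and are set free when that body fuses with the cell surface. The ESCRT complexes sort cargo, shape the bud and cut its neck, and the VPS4 ATPases then take the ESCRT-III filament apart. ALIX (the product of PDCD6IP) and syntenin (that of SDCBP) link this machinery to syndecans, and tetraspanins organise the vesicle membrane. In the corneal epithelium, vesicles are one means by which cells signal to each other and to the stroma below. Transcript levels do not measure the number of vesicles, which was not assayed here. In cultures of mixed cells, fewer cells of a type and less RNA per cell cannot be told apart.

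Libraries held 31952352 to 34327534 counts on genes. Values are given as CPM, the counts of a gene scaled to a common library size, after TMM scaling, which corrects for a few very abundant genes, or as the FPKM values of the authors, which divide by gene length and by the library total without that correction. Preconditioned replicate 1 lay apart from the other preconditioned libraries, at 8.13 on the first principal component against 58.3 and 70.4, while the fresh libraries lay between −53.1 and −41.1. SE is the standard error of a log2 fold change, and p values come from edgeR's quasi-likelihood test. A gene was called when its Benjamini-Hochberg adjusted p was at most 0.05 and its log2 fold change was at least 1 in size. KRT5, the keratin of basal epithelium, was abundant in all libraries at 7337 to 11740 CPM. KRT15 was low at 0.988 to 9.71 CPM, and TP63, a factor of basal epithelial cells, had 226 to 246 CPM in the fresh libraries and 112 to 183 CPM in the preconditioned ones (log2 fold change −0.77, adjusted p = 0.059). The log2 fold changes of the other epithelial markers were 0.50 for EPCAM (adjusted p = 0.060, higher without overlap) and, with overlapping groups, 0.81 for PAX6 (adjusted p = 0.11), 0.18 for KRT15, −0.04 for KRT5, −0.07 for CDH1 and −1.21 for KRT3 (adjusted p = 0.30). The epithelial markers KRT12 and KRT14 were not analysed here.

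Of the 9 genes, EDIL3 and CHMP1B were called, both higher in the preconditioned group, and none was called lower. The call of CHMP1B was lost when a second row with the same description was added to it. Over all tested genes, 1.08% were called higher and 1.2% lower. The 3 preconditioned libraries lay above the 3 fresh libraries for CD9, TSG101, SDCBP, CHMP1B, VPS4B and EDIL3, that is for 6 of the 9. Over the whole tested set, 17.9% were higher without overlap and 18.8% lower (36.7% together). The median log2 fold change of the 9 genes was 0.51, and that of all tested genes was 0.01. This picture depended in part on the scaling. With library totals in place of TMM the median over all tested genes moved to −0.16, and that over the 9 genes to 0.34. CD9, CHMP1B, VPS4B and EDIL3 were then higher without overlap, PDCD6IP was lower without overlap, and TSG101 and SDCBP overlapped, so that 5 of the 9 were separated, and 38.8% of the whole tested set. Every gene kept the sign of its change under both scalings.

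**Figure D1:**
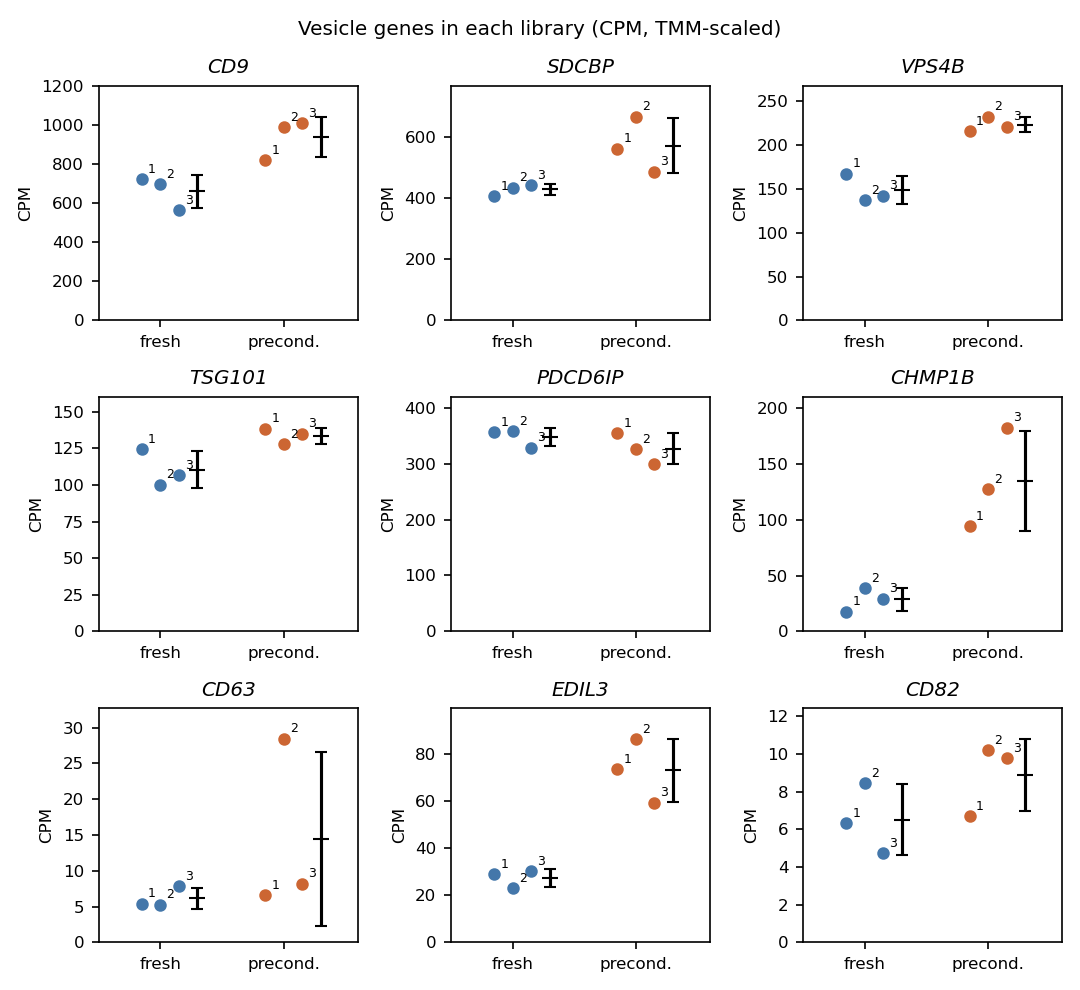
Expression of the 9 genes in each library in CPM after TMM scaling, with fresh libraries in blue and preconditioned libraries in orange. Numbers beside the points are replicate numbers, the black bars show mean ± SD (n = 3), and each vertical axis starts at 0. The groups are apart for CD9, SDCBP, VPS4B, TSG101, CHMP1B and EDIL3, and a single library, preconditioned replicate 2, stands high for CD63.

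**Figure D2:**
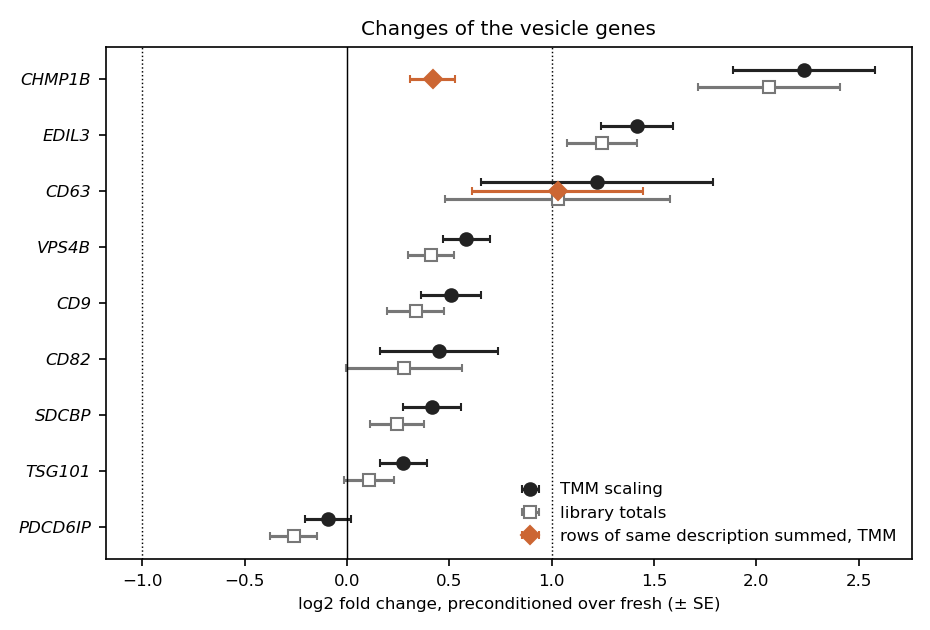
Log2 fold change (preconditioned over fresh) of each gene with its standard error, from edgeR with TMM scaling (black circles) and with library totals (open squares). Orange diamonds show CHMP1B and CD63 after the counts of a second row with the same gene product were added, where CHMP1B moves from 2.23 to 0.42. Dotted lines mark a log2 fold change of 1 in either direction.

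Among the tetraspanins read here, which do not include CD81, CD9 was the most abundant. CD9 organises adhesion and fusion proteins in the plasma membrane and is a widely used surface marker of exosomes. Its expression in the fresh libraries was 724, 698 and 564 CPM, and in the preconditioned libraries 821, 989 and 1012 CPM. All preconditioned libraries thus lay above all fresh libraries, and replicate 1 of the preconditioned group lay closest to them. The log2 fold change was 0.51 (SE 0.15, adjusted p = 0.076), which did not pass. Per length, CD9 had 544 ± 67.9 FPKM (fresh) and 686 ± 66.7 FPKM (preconditioned; SD, n = 3 each), and its mean over the 6 libraries ranked 129 among the tested genes. Tetraspanin FPKM were summed without CD81 and without a further row described as CD63 antigen. CD9 alone held 44.1% to 51.1% of this sum in the fresh libraries and 51.1% to 54.7% in the preconditioned libraries. The ranges overlapped only at 51.1%.

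CD63, a tetraspanin of late endosomes and lysosomes and another common exosome marker, was expressed far below CD9, at 7.68 ± 1.86 FPKM (fresh) and 15.7 ± 12.8 FPKM (preconditioned; SD, n = 3 each). The fresh libraries had 5.42, 5.26 and 7.88 CPM, and the preconditioned libraries had 6.63, 28.5 and 8.20 CPM. The groups overlapped, and the high mean rested on preconditioned replicate 2. The log2 fold change of 1.22 (SE 0.57, adjusted p = 0.20) did not pass and was 0.26 (adjusted p = 0.64) without that library. Preconditioned replicate 2 also had the highest level of 6 of 11 stromal markers and 4 of 6 leukocyte markers, while COL1A2, COL5A2, KERA, PDGFRB and THY1 were highest in other libraries. VIM, an intermediate filament gene of stromal cells, stood at 735 CPM there and at 240 to 450 CPM in the other libraries. LUM, a proteoglycan of corneal stroma, was at 113 CPM against 53.3 CPM in the next library, and PECAM1, an endothelial adhesion gene, at 12.8 CPM against 4.97 CPM. The leukocyte genes PTPRC and CSF1R had 47 and 148 counts in it, and 7 to 17 and 22 to 57 counts in the other libraries. Their part in the CD63 value was not tested. A further row described as CD63 antigen, LOC127487415, had 3.83 to 5.20 CPM in the fresh libraries and 5.36 to 7.99 CPM in the preconditioned libraries. With its counts added, the log2 fold change of CD63 was 1.03 (SE 0.42, adjusted p = 0.15). Of the counts on both rows, the CD63 row held 78.1% in preconditioned replicate 2 and 50.9% to 60.3% in the other libraries.

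CD82, a tetraspanin that restrains cell motility, was among the least abundant of the 9 genes per length, at 3.83 ± 1.10 FPKM (fresh) and 4.64 ± 0.917 FPKM (preconditioned; SD, n = 3 each). It had 6.35, 8.47 and 4.73 CPM in the fresh libraries and 6.69, 10.2 and 9.78 CPM in the preconditioned libraries. The groups overlapped, and the log2 fold change of 0.45 (SE 0.29, adjusted p = 0.32) did not pass.

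In the wider tetraspanin family, 28 of 33 listed genes were found by symbol and 20 of these passed the filter on low counts. Tetraspanin-4, which is described on a pair of rows without that symbol, is not among them. With edgeR, 0 of the 20 genes were called, and DESeq2 called CD53 alone. With edgeR, 6 had an unadjusted p under 0.05, a count that was not taken over all tested genes. CD53, a tetraspanin of leukocytes, had 50.3, 41.3 and 16.9 CPM in the fresh libraries and 9.40, 15.2 and 12.3 CPM in the preconditioned libraries. It was thus lower without overlap, by a small margin from fresh replicate 3, and its log2 fold change was −1.56 (SE 0.40, adjusted p = 0.064). It was called with library totals or without fresh replicate 3. Among the leukocyte markers, PTPRC had 7 to 47 counts per library and CD3E had at most 1 count, while CD68, a lysosomal gene of macrophages, had 93.4 to 129 CPM in the fresh libraries and 121 to 300 CPM in the preconditioned libraries. The summed level of the list was 103 to 136 CPM and 125 to 317 CPM. The log2 fold change of CD68 was 1.14 (adjusted p = 0.085). The part of leukocytes in the CD53 value was not tested. After CD9, the most abundant tetraspanins read here, by their mean over the 6 libraries, were CD151, which associates with laminin-binding integrins, and TSPAN3. They held 7.57% to 10.2% and 7.61% to 10.7% of the same summed FPKM, without CD81. The family's median log2 fold change was 0.25, or 0.08 with library totals.

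**Figure D3:**
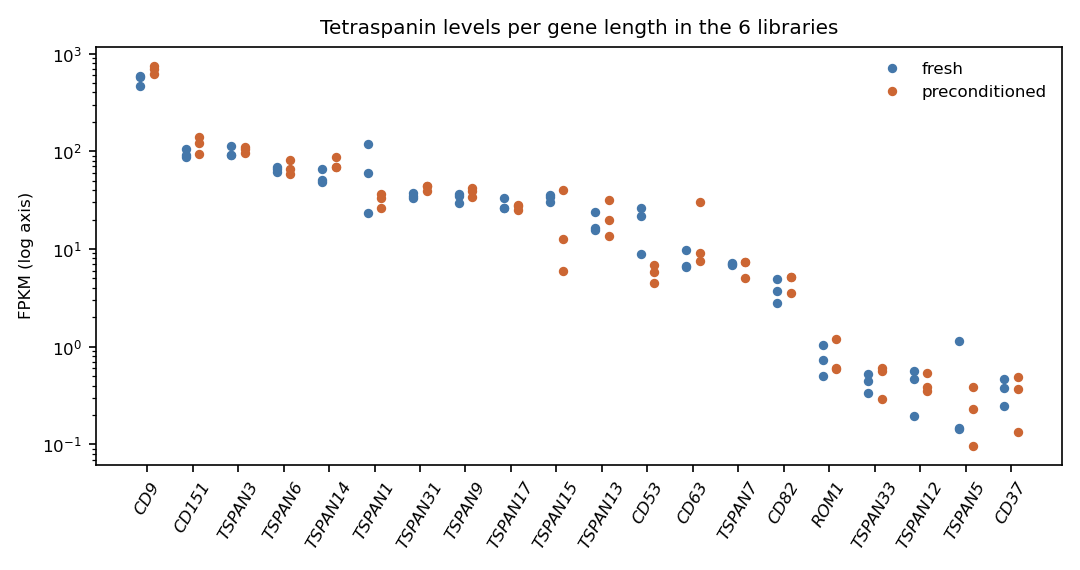
FPKM of the 20 tested tetraspanin genes in the 3 fresh (blue) and 3 preconditioned (orange) libraries, ordered by their mean and drawn on a log axis. CD9 lies above all others in each library, and CD63 and CD82 lie in the lower part of the order.

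TSG101 is the ESCRT-I subunit that recognises ubiquitin and ESCRT-0, and is used as an exosome marker from inside the vesicle. It had 125, 100 and 107 CPM in the fresh libraries and 138, 128 and 135 CPM in the preconditioned libraries. The groups did not overlap after TMM scaling but did with library totals, where TSG101 had 50.0 ± 5.51 FPKM (fresh) and 53.9 ± 3.68 FPKM (preconditioned; SD, n = 3 each). Its log2 fold change of 0.28 (SE 0.12, adjusted p = 0.16) did not pass.

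PDCD6IP, whose product ALIX bridges ESCRT-I, ESCRT-III and syntenin, was the only one of the 9 genes with a negative log2 fold change. It had 357, 358 and 328 CPM in the fresh libraries and 354, 326 and 299 CPM in the preconditioned libraries, so that the groups overlapped. The log2 fold change was −0.09 (SE 0.11, adjusted p = 0.61) and −0.26 with library totals (adjusted p = 0.16). As a ratio within each library, which no scaling changes, PDCD6IP stood lower against TSG101 in all preconditioned libraries. The log2 ratio of their FPKM was −0.40, −0.08 and −0.29 in the fresh libraries and −0.56, −0.56 and −0.77 in the preconditioned libraries. Other ratios overlapped between the groups, namely VPS4B to VPS4A, SDCBP to SDCBP2, CD9 to CD82 and CD63 to LAMP1. Ratios of the CHMP1B row to CHMP1A and to VPS4B were higher without overlap. How often such ratios separate over all tested genes was not counted.

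SDCBP encodes syntenin, an adaptor with PDZ domains that binds the tails of syndecans and, through ALIX, feeds them into budding vesicles. Per length it was the next most abundant of the 9 genes after CD9, with 220 ± 10.6 FPKM (fresh) and 260 ± 35.5 FPKM (preconditioned; SD, n = 3 each). It had 407, 433 and 442 CPM in the fresh libraries and 561, 665 and 485 CPM in the preconditioned libraries. Preconditioned replicate 3 lay closest to the fresh group, and with library totals the groups overlapped. The log2 fold change of 0.42 (SE 0.14, adjusted p = 0.10) did not pass. Against PDCD6IP, the log2 ratio of FPKM was 2.29, 2.37 and 2.53 in the fresh libraries and 2.76, 3.13 and 2.80 in the preconditioned libraries, without overlap. SDCBP2, its paralogue, was near 1 FPKM or below in the group means, at 0.696 and 0.741.

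Of the 13 listed genes around ALIX, syntenin and the syndecans, all were tested and 0 were called by edgeR or DESeq2. An unadjusted p under 0.05 was found for 4, a count that was not taken over all tested genes. The groups were apart for 5 of the 13, 4 higher and 1 lower, a share near the 36.7% of all tested genes. With library totals 1 was higher and 3 were lower, and the list's median log2 fold change went from 0.15 to −0.02. SDC1, the main syndecan of epithelia and a cargo of this route, was the most abundant at 800 and 1041 FPKM in the group means, with 1464 to 1699 CPM in the fresh libraries and 2074 to 2700 CPM in the preconditioned libraries. Its log2 fold change was 0.55 (SE 0.14, adjusted p = 0.063). SDC2, the syndecan of mesenchymal cells, had the lowest log2 fold change of the list at −0.96 (SE 0.48, adjusted p = 0.22).

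CHMP1B is an ESCRT-III subunit that recruits VPS4 and the microtubule-severing enzyme spastin. Its row had the largest log2 fold change of the 9 genes. The fresh libraries had 17.8, 38.6 and 29.3 CPM and the preconditioned libraries had 94.3, 127 and 182 CPM. The groups lay far apart, and the log2 fold change was 2.23 (SE 0.35, adjusted p = 0.032). Leaving out any library other than preconditioned replicate 1 raised the adjusted p to 0.075 to 0.13, while the log2 fold change stayed between 1.96 and 2.51.

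The table holds another row with the same description, LOC100349753, and the lengths behind the FPKM values of both rows are 2632 and 2633 bases. The NCBI identifier of that row carries the symbol CHMP1B in RefSeq's rabbit assembly mOryCun1.1, where the identifier of the row named CHMP1B was not found. LOC100349753 had 154, 119 and 120 CPM in the fresh libraries and 120, 101 and 16.6 CPM in the preconditioned libraries. The groups of this row overlapped, and preconditioned replicate 3, the highest library for CHMP1B, was the lowest here (log2 fold change −0.73, adjusted p = 0.46). Of the counts on both rows, the CHMP1B row held 10.3% (95% Wilson interval 9.58 to 11.1), 24.6% (23.4 to 25.7) and 19.6% (18.6 to 20.7) in the fresh libraries. It held 44.1% (42.9 to 45.3), 55.8% (54.6 to 56.9) and 91.6% (90.9 to 92.3) in the preconditioned libraries. These intervals cover counting error only.

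The sum of both rows was 172, 157 and 150 CPM in the fresh libraries and 214, 228 and 199 CPM in the preconditioned libraries. Its means were 160 ± 11.5 and 214 ± 14.3 CPM (SD, n = 3 each), and the groups remained apart. Fitted as 1 gene, an alternative chosen after seeing the data, CHMP1B had a log2 fold change of 0.42 (SE 0.11, adjusted p = 0.062), so that the call was lost. How reads were shared between these rows in the counting was not tested.

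**Figure D4:**
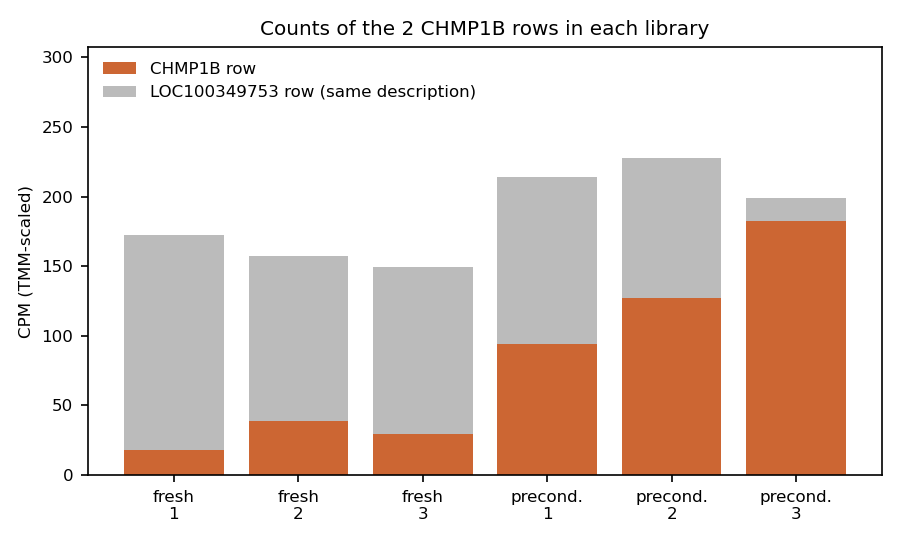
CPM after TMM scaling of the CHMP1B row (orange) and of LOC100349753, the row with the same description (grey), stacked for each library. The orange part grows from 10.3% to 24.6% of the bar in the fresh libraries to 44.1% to 91.6% in the preconditioned libraries, while the height of the bars runs from 150 to 172 CPM and from 199 to 228 CPM.

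VPS4B is 1 of the 2 ATPases that disassemble ESCRT-III at the end of budding. It had 168, 137 and 142 CPM in the fresh libraries and 216, 233 and 221 CPM in the preconditioned libraries, where the 3 values lay close together. Its adjusted p of 0.042 passed the threshold on p, but the log2 fold change of 0.58 (SE 0.11) was under the cutoff of 1. The adjusted p was 0.060 with library totals, 0.11 with replicate numbers as a block, and 0.094 to 0.16 without any library other than preconditioned replicate 1. VPS4A, its paralogue, had a log2 fold change of 0.25 (SE 0.26, adjusted p = 0.54) and overlapping groups. VPS4A also had other rows with a like description, of which LOC127489134 held 2.80 to 21.7 CPM, and with these added its log2 fold change was −0.03 (adjusted p = 0.91).

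Over the 28 tested genes of ESCRT-0 to ESCRT-III and VPS4 with its cofactor, 25 had a positive log2 fold change, with a median of 0.27. Without overlap, 18 were higher and none was lower, where over all tested genes 17.9% were higher and 18.8% lower. With library totals, 18 were positive, the median was 0.10, and 9 were higher and 1 lower without overlap, where 38.8% of all tested genes were apart in either direction. CHMP1B was the only one called. In ESCRT-0, which gathers ubiquitinated cargo, STAM2 had 59.7 to 62.6 CPM in the fresh libraries and 83.9 to 91.1 CPM in the preconditioned ones, and passed on p (adjusted p = 0.039, or 0.066 with library totals) with a log2 fold change of 0.50, under the cutoff. HGS, the most abundant of its 3 genes per length, had 0.14 (adjusted p = 0.34) and turned to −0.03 with library totals. In ESCRT-I, VPS28 had the highest level at 79.4 and 88.1 FPKM and the highest log2 fold change (0.32, adjusted p = 0.083), and VPS37C the lowest (−0.39, adjusted p = 0.41). The VPS37A to VPS37C genes ranged from −0.39 to 0.26. In ESCRT-II, VPS36 had 234 to 372 CPM in the fresh libraries and 425 to 634 CPM in the preconditioned libraries, with a log2 fold change of 0.72 (SE 0.22, adjusted p = 0.085), and VPS25 had 0.06 (adjusted p = 0.77).

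In ESCRT-III, whose filaments close the neck of the bud, CHMP5 and CHMP3 passed the threshold on p without reaching the fold. CHMP5 had 131 to 161 CPM in the fresh libraries and 227 to 321 CPM in the preconditioned libraries, with a log2 fold change of 0.94 (SE 0.16, adjusted p = 0.036). CHMP3 had 96.9 to 104 CPM and 140 to 156 CPM, with a log2 fold change of 0.57 (SE 0.098, adjusted p = 0.037, or 0.052 with library totals). Neither had a further row of its name in the table. CHMP2A was the most abundant at 166 and 189 FPKM (log2 fold change 0.35, adjusted p = 0.065). CHMP4A had the lowest log2 fold change (−0.15, adjusted p = 0.60). CHMP1A, the paralogue of CHMP1B, had 0.33 (SE 0.12, adjusted p = 0.12), and VTA1, the VPS4 cofactor, had 0.03 (adjusted p = 0.92).

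EDIL3 binds integrins through an RGD motif and phosphatidylserine through its discoidin domains, and is carried on vesicles. It was expressed at 28.9, 23.0 and 30.1 CPM in the fresh libraries and 73.6, 86.2 and 59.3 CPM in the preconditioned libraries. Each preconditioned library was well above the fresh range, and EDIL3 had a log2 fold change of 1.42 (SE 0.18, adjusted p = 0.021), a 2.67-fold rise. Per length its level stayed low, at 2.82 ± 0.393 FPKM and 6.69 ± 1.11 FPKM (SD, n = 3 each), below CD82 in the fresh mean and above it in the preconditioned mean. The adjusted p became 0.072 when replicate numbers entered as a block, and without any one of fresh replicates 1, 2 and 3 or preconditioned replicate 2 it was 0.060 to 0.10, with log2 fold changes of 1.28 to 1.49. In the deposited annotation, EDIL3 was the only one of the 9 genes with the GO term extracellular vesicle. Of the 7 genes with any GO term, 6 carried the term extracellular exosome (CD63, TSG101, PDCD6IP, CHMP1B, VPS4B and EDIL3). Of the tested genes with any term, 5.94% carried it. The 9 genes were chosen as vesicle genes, so that this difference follows from the choice.

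EDIL3 is also expressed by mesenchymal and endothelial cells. Of 11 stromal markers, all tested, COL1A1 alone was called, with 56.8 to 109 CPM in the fresh libraries and 505 to 693 CPM in the preconditioned libraries (log2 fold change 2.66, adjusted p = 0.015). The summed level of the list was 575 to 1380 CPM in the fresh libraries and 1406 to 2473 CPM in the preconditioned ones. Without COL1A1 it was 518 to 1272 CPM and 897 to 1781 CPM, and the groups overlapped. VIM was the most abundant of the list per length. The groups of the other 10 genes overlapped between the groups, among them DCN (85.8 to 142 and 38.3 to 208 CPM) and PDGFRA (2.23 to 4.87 and 1.10 to 9.43 CPM). Of the endothelial markers, CDH5, VWF, KDR and TEK stayed at or under 0.224 CPM in every library, while PECAM1 had 2.30 to 2.99 and 0.882 to 12.8 CPM. The part of stromal cells in the EDIL3 value was not tested. No tested gene of the other lists of cell type markers was called. Of 7 melanocyte markers, 5 were too low to be tested. TYRP1 was the most abundant of the 7 per length only by its mean over the 6 libraries. Per length, MITF was above it in every fresh library and in preconditioned replicate 1. TYRP1 had 0.164 to 0.290 CPM in the fresh libraries and 0.122 to 2.60 CPM in the preconditioned ones, with overlapping groups (log2 fold change 2.59, adjusted p = 0.12). MITF had 4.22 to 5.44 CPM in the fresh libraries and 2.19 to 3.69 CPM in the preconditioned ones, lower without overlap (log2 fold change −0.61, adjusted p = 0.20). KRT19, the most abundant conjunctival marker, had 1401 to 3870 CPM with overlapping groups (log2 fold change −0.37, adjusted p = 0.59). The log2 fold changes of KRT4 and KRT13 were 1.46 (adjusted p = 0.46) and 0.97 (adjusted p = 0.53), also with overlapping groups, and both were highest in preconditioned replicate 1, at 44.2 and 61.1 CPM.

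MFGE8, the paralogue of EDIL3 and the milk fat globule protein that coats vesicles, was far more abundant, at 179 and 302 FPKM in the group means. It had 319 to 355 CPM in the fresh libraries and 582 to 674 CPM in the preconditioned libraries, with a log2 fold change of 0.93 (SE 0.11, adjusted p = 0.020), just under the cutoff on fold. The log2 ratio of EDIL3 to MFGE8 was −6.32 to −5.78 in the fresh libraries and −5.67 to −5.34 in the preconditioned libraries, so that EDIL3 stood higher against it without overlap. ADAM17 was the lowest of the 8 tested cargo genes, with a log2 fold change of 0.08 (adjusted p = 0.65) that turned negative with library totals.

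The remaining genes of docking and release came from a list of 20, of which 19 were tested and RAB27B was called. RAB27B, a small GTPase that docks multivesicular bodies at the plasma membrane, had 87.1, 61.9 and 69.1 CPM in the fresh libraries and 122, 193 and 211 CPM in the preconditioned libraries. The groups were apart, preconditioned replicate 1 lay closest to the fresh libraries, and the log2 fold change was 1.27 (SE 0.23, adjusted p = 0.039). Its call was lost with replicate numbers as a block and without any library other than preconditioned replicate 1. RAB27A, its partner in the same step, had 0.28 (SE 0.55, adjusted p = 0.76) with overlapping groups. VAMP8, a SNARE of endosome fusion, had 114 to 128 CPM and 200 to 210 CPM in the fresh and preconditioned libraries, and passed on p (adjusted p = 0.022) with a log2 fold change of 0.79. RALA, a GTPase linked to exosome secretion, passed on p as well (adjusted p = 0.032, log2 fold change 0.65). RAB11A, of recycling endosomes, was the most abundant at 341 and 401 FPKM (adjusted p = 0.068), and EXPH5 had the lowest log2 fold change (−0.86, adjusted p = 0.22).

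In other routes, single genes passed the threshold on p. Of the 6 tested genes of sphingomyelin and ceramide metabolism, through which vesicles can bud without ESCRT, 0 were called by edgeR or DESeq2. For 2 the unadjusted p was under 0.05, a count that was not taken over all tested genes. SMPD4, a sphingomyelinase, had 41.7 to 47.7 CPM in the fresh libraries and 20.7 to 29.0 CPM in the preconditioned libraries, with an adjusted p of 0.038 and a log2 fold change of −0.91. It reached −1.08 with library totals. ASAH1, an acid ceramidase and the most abundant of the list per length, had 0.85 (adjusted p = 0.059). Among tetraspanin partners, IGSF3 had 217 to 246 CPM and 127 to 151 CPM, with an adjusted p of 0.031 and a log2 fold change of −0.74, and CLDN1, the most abundant per length, had 0.39 (adjusted p = 0.14). Over the 96 tested genes of all lists other than the 9, 1 was called and 9 had an adjusted p of at most 0.05. Over all 15029 tested genes, 344 were called and 763 had an adjusted p of at most 0.05. Of the 96, the groups were apart for 39 (40.6%), near the 36.7% of all tested genes. With library totals they were apart for 31, 18 higher and 13 lower, where 38.8% of all tested genes were apart. The median log2 fold change of the 96 was 0.23, or 0.06 with library totals.

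**Figure D5:**
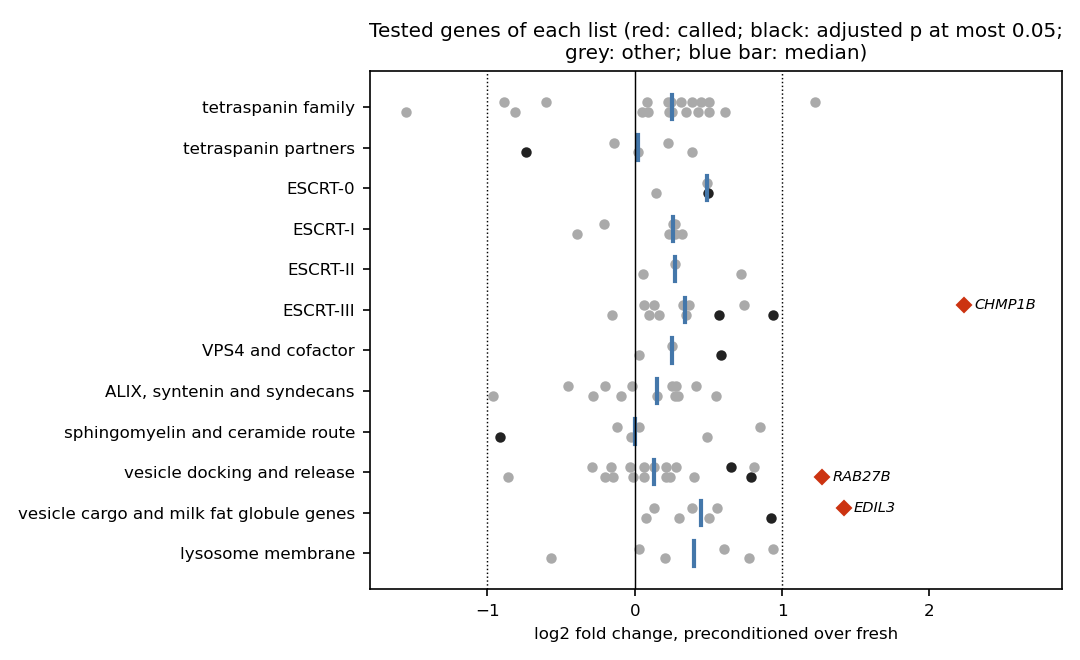
Log2 fold change (preconditioned over fresh, TMM scaling) of each tested gene of the lists, 1 point per gene, with the median of each list as a blue bar. Red diamonds are the called genes CHMP1B, RAB27B and EDIL3, black points had an adjusted p of at most 0.05 under the cutoff on fold, and most points lie between 0 and 1.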

How the data were processed

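Reads of 6 poly(A) RNA libraries were aligned by the authors with hisat2 and counted per gene with htseq-count, and the deposited counts are not normalized. The FPKM values deposited by the authors divide each count by the library's total and by 1 length per gene. Build, annotation, strand setting and that length's definition are not given in the sources used here. RNA extraction is described with an Omega kit in the methods and with TRIzol in the labels.

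In R 4.3.3, edgeR 4.0.16 was run on counts (filterByExpr, TMM, robust quasi-likelihood test, group as the only term), with adjustment by Benjamini-Hochberg over 15029 genes. Standard errors came from the F statistic. The code was tested on simulated counts. Alternatives used DESeq2 1.42.0, limma 3.58.1, other scalings and filters, the replicate number as a block and leaving out each library. The genes and lists were chosen with earlier results of these data known. Named beyond the 9 genes were every listed gene whose adjusted p was 0.05 or less, the most abundant and the extreme genes of each list, and paralogues. Genes added after their values were seen are CD151, TSPAN3, RAB27A, the further cell type markers and the rows sharing a description.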

Additional observations from a re-analysis of the deposited data

How the results depend on the processing

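None of 128 refitted values of the 9 genes changed sign. Only CHMP1B and EDIL3 had a call to lose. It was lost in 6 of 15 refits of CHMP1B and in 5 of 14 refits of EDIL3. Calls over all genes, 344 here, numbered 1190 with DESeq2, 565 with library totals, 30 with the replicate number as a block, 572 with limma on log2(FPKM + 0.1), 763 with no cutoff on fold, and 14 to 1546 without single libraries (highest without preconditioned replicate 1). Of those, 142 were higher and 423 lower with library totals, and 97 and 277 of 374 with limma on log2(FPKM + 1), against 163 and 181. Of the 9 genes, 2 were called here, 1 with the replicate block (CHMP1B), 1 with rows of one description summed (EDIL3) and 0 to 2 without single libraries. It was 0 without any 1 fresh library or preconditioned replicate 2, 1 without preconditioned replicate 3 and 2 without preconditioned replicate 1. Of all listed genes, 3 were called here, 5 with library totals (with CD53 and SMPD4), 1 with the block, 12 with no cutoff on fold and 0 to 7 without single libraries. The 7, without preconditioned replicate 1, added ASAH1, CHMP5, NPC1 and SMPD4. Each fit without a library also has fewer degrees of freedom. The causes of these moves were not tested. With the block, EDIL3 had an adjusted p of 0.072. Libraries with the same number correlated at −0.109 to −0.067 in their deviations from the group means, and none correlated best with its own number. With 3 libraries per group, such correlations cannot decide whether the numbers pair the libraries. Counts per library were 187 to 890 for CD63 and 173 to 320 for CD82.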

Other observations

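Lysosome membrane genes, which share late endosomes with CD63, were also counted. Of 6 tested, 0 were called by edgeR or DESeq2. An unadjusted p under 0.05 was found for 4, a count that was not taken over all tested genes. The groups were apart for 4 of the 6 (3 higher and 1 lower), or for 2 with library totals. Over all tested genes the groups were apart for 36.7%, and for 38.8% with library totals. NPC1, a cholesterol exporter, had the highest log2 fold change (0.94, adjusted p = 0.066) and TMEM192 the lowest (−0.57, adjusted p = 0.087). SCARB2, the most abundant, had 185 and 168 FPKM in the group means.

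Several other genes of these lists shared a description with a further row, and the share held by the named row differed between libraries for some of them. It moved little for IST1 (93.1% to 96.5%) and RAB7A (99.8% to 99.9%). YKT6, a SNARE of vesicle release, held 71.9% to 80.7% of the counts of its rows in the fresh libraries and 99.5%, 87.6% and 73.3% in preconditioned replicates 1, 2 and 3. RALA held 82.4% to 85.9% in the fresh libraries and 98.4%, 90.9% and 82.3% in preconditioned replicates 1, 2 and 3. With both rows added, RALA stood at 0.56 on the log2 scale (adjusted p = 0.040), and at 0.65 in its named row alone. VPS4A held 59.4% to 80.6% in the fresh libraries and 95.4%, 84.9% and 64.0% in preconditioned replicates 1, 2 and 3. The further row was thus lowest in preconditioned replicate 1 for these 3 genes and in preconditioned replicate 3 for CHMP1B. Tetraspanin-4 is described on a pair of rows, LOC127486105 with 27.3 to 53.8 CPM and LOC127486883 with 2.17 to 33.7 CPM, the lowest value of the latter being in preconditioned replicate 3. The cause was not tested.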
